A study of Mus musculus with 12 samples.

Results

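The late response of pre-osteoblasts to inhibition of EZH2 was read from the 6 day 6 libraries of a 12-library RNA-seq series: 3 from cells that received 5 µM GSK126 and 3 from cells that did not. Members were chosen by the treatment and day in the sample labels alone, and no measured value entered that choice. All cells were MC3T3 sc4, a C57BL/6 mouse calvarial pre-osteoblast line, which is a single subclone, at passage 12, kept in osteogenic medium (maintenance medium with ascorbic acid and β-glycerol phosphate) that was renewed with the agents after 3 days. The 3 groups without GSK126 received vehicle, BMP2 (bone morphogenetic protein 2, which drives osteoblast differentiation) at 10 ng/ml, or BMP2 at 50 ng/ml, and the 3 groups with GSK126 received 5 µM GSK126 alone, with BMP2 at 10 ng/ml, or with BMP2 at 50 ng/ml. Each of these 6 conditions is 1 library, so the comparison sets 3 libraries against 3, matched by BMP2 dose, and a difference at 1 dose has no replicate check. Nothing in the labels says that each library had a culture of its own, and the p-values therefore describe only how these libraries spread, which may be technical. The other 6 libraries hold the same 6 treatments on day 1.

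EZH2 is the catalytic subunit of Polycomb repressive complex 2 (PRC2), which places methyl groups on lysine 27 of histone H3. Trimethylated H3K27 marks repressed promoters, often of genes that specify other or later cell fates, and it is bound by Polycomb repressive complex 1 (PRC1). GSK126 competes with the methyl donor at the active site of EZH2, so the mark is lost gradually as cells divide and histones turn over, while the EZH2 protein itself need not change. Osteoblast differentiation passes from proliferation to deposition of collagen matrix and then to mineralisation, with osteocytes as the last stage.

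Each day 6 library held between 80015906 and 106083584 counts (40007953 to 53041792 read pairs), given here as counts per 1e+06 counts (CPM) after scaling by edgeR's trimmed mean of M-values (TMM). Rn45s, the ribosomal RNA precursor, took 15.4%, 17.16% and 21.66% of counts without GSK126 and 14.47%, 13.49% and 13.1% with it at 0, 10 and 50 ng/ml BMP2, so it took less of each library with GSK126 than of its partner. All 6 osteoblast markers listed (Runx2, Sp7, Alpl, Ibsp, Bglap and Col1a1) were tested, and none lay at the floor of 3 read pairs. Of the markers of other cells, 5 of 7 endothelial, 5 of 11 macrophage and osteoclast, 5 of 9 adipocyte, 4 of 9 skeletal muscle and 7 of 13 epithelial genes lay at or below the floor in all 6 libraries, among them Cdh5, Tyrobp, Cfd, Myog and Krt8. In bulk samples, fewer cells of a type and less RNA per cell cannot be told apart.

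Of 11804 genes tested (at least 1 CPM in at least 2 of the 6 libraries), 956 differed with GSK126 at an adjusted p under 0.05 in edgeR's quasi-likelihood test with dose as a block, which is 8.1% of those tested. Of these, 473 were higher (4.01%) and 483 lower (4.09%). All 956 had 1 direction at the 3 doses, which the test itself favours, as its spread is how the difference varies over the doses. Among called genes, 192 of the 473 rises were at least 2-fold and 71 at least 4-fold, against 108 and 3 of the 483 falls. These counts keep genes that the filter on level let in only through the group where they are high. Of these, 56 among the rises and 5 among the falls lay under 1 CPM in each library of the other group. Genes with only 1 library of the other group at 1 CPM or more are further cases and were not counted. The larger reach of the rises is therefore a description only. With no test, all 3 libraries with GSK126 lay above all 3 without it for 1251 genes (10.6%) and below them for 1212 (10.3%), and the difference had 1 direction at the 3 doses for 2979 genes upward (25.2%) and 3055 downward (25.9%). Each log2 fold change is GSK126 minus none over the 3 doses and is followed by ± its standard error, and sets of 3 values follow the BMP2 doses 0, 10 and 50 ng/ml.

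The number called rested on the libraries at 10 ng/ml BMP2. Without both of them 9 genes passed, with 1 residual degree of freedom: Trib3, Car6, Gpnmb, Cox6a2, Avil, Cd300lb, Ostn, Cdsn and Megf10, all higher with GSK126. Without both libraries at 0 ng/ml 1344 passed, and without both at 50 ng/ml 960 did. Without the 10 ng/ml libraries no list below had more than 1 called member. For some of the lists whose count or median moved without another dose, those values are given. The filter on level also bears on the rises: 56 of the 473 higher genes lay under 1 CPM in each library without GSK126, so they were tested only through the group where they are high, against 5 of the 483 lower genes in the other direction. Among list members these are Ostn, Hoxb13, Frzb, Slc7a3, Enpp1, Col9a1, Col13a1, Col23a1 and Scn1a, whose values below are given as descriptions with no p. A higher gene with only 1 library without GSK126 at 1 CPM or more also needed the libraries with GSK126 to be tested. Such genes are not among the 56. Of them, Lgr6, Eln and Fosl1 are likewise given with no p. List members of both kinds stand in the counts of their lists.

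**Figure D1:**
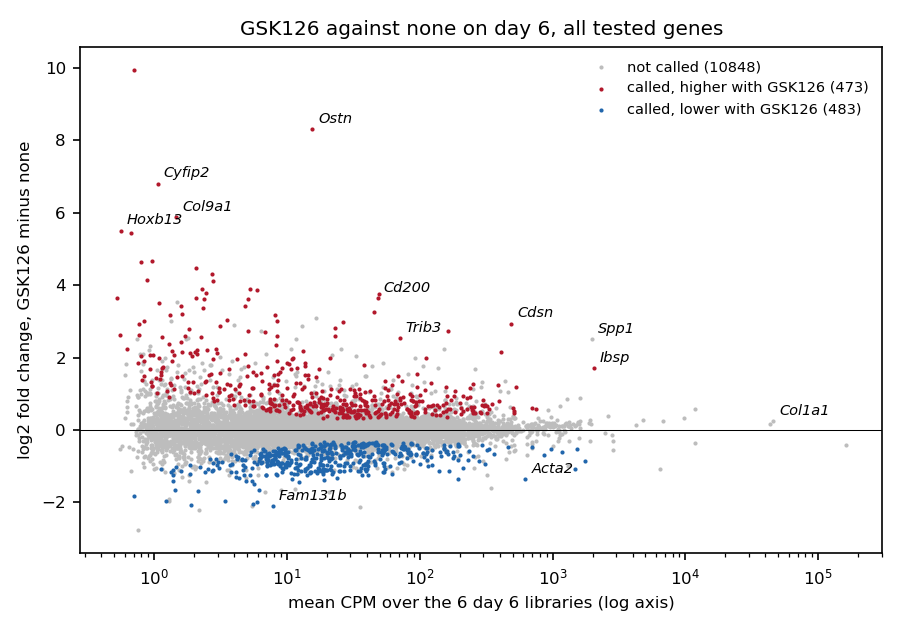
Mean level over the 6 day 6 libraries (CPM, log axis) against the log2 fold change for GSK126, 1 point per tested gene, with called genes in red (473 higher) and blue (483 lower). The largest changes are rises of weakly expressed genes, some of them tested only through the libraries with GSK126. The called falls lie almost all between 0 and -2.

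Cell division genes were lower with GSK126 as a group. Of 52 genes of mitosis and cytokinesis tested, 49 fell, 0 rose and 3 did not pass (Cdc25b, Smc4 and Pttg1), with a median log2 fold change of -1.08, against a median of 0.00 over all tested genes. In 39 of the 52 every library with GSK126 lay below every library without it. The list's median was -1.09, -1.07 and -1.02 by dose and between -1.05 and -1.07 with any dose left out. Its summed level ran from 1591 to 3070 CPM without GSK126 and from 876 to 1487 CPM with it. The part of cell number in this difference was not tested.

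Cdc20 (chromosome 4, 118432901 to 118437343 in mm10), which activates the anaphase-promoting complex, stood at 45.3, 32.9 and 22.6 CPM without GSK126 and 19.8, 13 and 8.28 CPM with it. Every library with GSK126 was below every library without it, and on both sides the level was lower at each higher BMP2 dose. Cdc20 fell by 1.33 ± 0.08 (adjusted p = 0.0053) on the log2 scale. The kinesin gene Kif4 stood at 38, 26.3 and 17.8 CPM without GSK126 and 15.2, 10.7 and 6.20 CPM with it, again without overlap, and fell by 1.38 ± 0.08 (adjusted p = 0.0053). Aspm, which encodes a spindle pole protein, stood at 77.4, 54.1 and 39.6 CPM without GSK126 and 33.3, 23.4 and 15.6 CPM with it, and Cenpe, a kinetochore motor gene, at 70.3, 49.6 and 35.7 CPM without GSK126 and 29.7, 20.7 and 15.1 CPM with it. Neither gene's groups overlapped. They fell by 1.26 ± 0.07 (adjusted p = 0.0053) and 1.25 ± 0.06 (adjusted p = 0.0053) respectively. Cenpe had nearly the same difference at each dose, -1.24, -1.26 and -1.24. Kif14, a cytokinesis kinesin gene outside that list, fell by 1.25 ± 0.08 (adjusted p = 0.0053).

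The promoters of Cdc20, Aspm and Kif4 are shown because the mitosis genes moved together and because many such promoters carry the cell cycle homology region, a short element bound by complexes that repress late cell cycle genes in resting cells. Each is the RefSeq window of 300 bases in GRCm38.p6 from 250 bases before the start site to 50 after it, written 5′ to 3′ along the gene, with every match to TTTGAA or its reverse complement TTCAAA in capitals. The windows are chr4:118437294-118437593 on the minus strand for Cdc20, chr1:139454523-139454822 on the plus strand for Aspm and chrX:100625815-100626114 on the plus strand for Kif4.
Cdc20: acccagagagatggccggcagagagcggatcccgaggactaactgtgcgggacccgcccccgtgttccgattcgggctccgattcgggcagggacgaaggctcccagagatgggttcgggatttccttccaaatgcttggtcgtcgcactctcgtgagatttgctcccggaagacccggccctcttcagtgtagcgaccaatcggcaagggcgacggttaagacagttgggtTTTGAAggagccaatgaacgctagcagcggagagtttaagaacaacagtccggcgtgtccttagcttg
Aspm: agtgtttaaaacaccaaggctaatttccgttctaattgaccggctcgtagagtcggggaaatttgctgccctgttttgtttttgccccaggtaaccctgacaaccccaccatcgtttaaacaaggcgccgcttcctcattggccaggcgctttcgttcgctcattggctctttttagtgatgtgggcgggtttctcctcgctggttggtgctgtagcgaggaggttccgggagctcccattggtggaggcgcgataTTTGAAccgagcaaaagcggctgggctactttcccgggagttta
Kif4: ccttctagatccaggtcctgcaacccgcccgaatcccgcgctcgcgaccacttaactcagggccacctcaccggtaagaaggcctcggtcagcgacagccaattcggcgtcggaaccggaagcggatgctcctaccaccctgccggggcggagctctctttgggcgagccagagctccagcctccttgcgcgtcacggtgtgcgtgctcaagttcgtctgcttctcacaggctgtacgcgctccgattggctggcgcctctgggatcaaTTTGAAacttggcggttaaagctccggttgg
The match is centred 15 bases before the start site in Cdc20, 9 bases after it in Aspm and 22 bases after it in Kif4. A match on either strand was present in 32 of the 44 mitosis promoters found in the RefSeq table (72.7%), all 32 of them of genes that fell. Of the 12 promoters without one, 10 were of genes that fell, and the median log2 fold change was -1.08 with a match and -1.04 without. A match was held by 17.9% of all 32851 RefSeq windows. Promoters were found for 79.5% of tested genes, too few for a firm background, and 1085 of those 9386 held a match (11.6%). Matches in the mitosis promoters were most frequent in the 50 bases after the start site (20 of 44). A match is a description of letters and shows no binding.

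**Figure D2:**
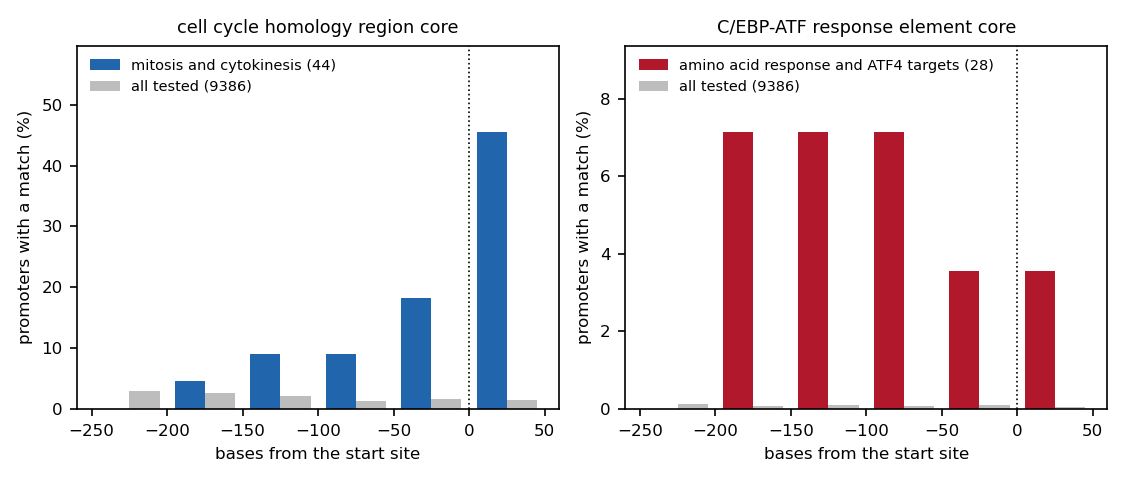
Share of promoters with a match on either strand in each 50-base bin around the start site, for the cell cycle homology region core in the mitosis list (left) and the C/EBP-ATF response element core in the amino acid response list (right), with all tested genes in grey and numbers of promoters in brackets. The left panel peaks at 45.5% in the 50 bases after the start site; the right panel holds few matches per bin, at most 7.14%.

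DNA replication genes moved the same way and less far. Of 39 tested, 16 fell, 0 rose and 23 did not pass, with a median of -0.50 (-0.43 to -0.60 with a dose left out; 13 fell without the 0 ng/ml libraries and 22 without those at 50 ng/ml). Tk1, the thymidine kinase of the nucleotide salvage pathway, stood at 34.7, 28.7 and 16.2 CPM without GSK126 and 16.1, 13.5 and 10.1 CPM with it, with no overlap, and fell by 0.97 ± 0.11 (adjusted p = 0.015). Uhrf1, which keeps DNA methylation through replication, fell by 0.92 ± 0.14 (adjusted p = 0.027), Mcm10 by 0.77 ± 0.09 (adjusted p = 0.016) and the polymerase gene Pole by 0.75 ± 0.11 (adjusted p = 0.027). Pcna (-0.21) and Mcm2 (-0.13) did not pass. Of 5 inhibitors of cyclin-dependent kinases tested, Cdkn2d fell by 0.70 ± 0.09 (adjusted p = 0.02) and Cdkn3, a mitotic phosphatase gene, by 0.90 ± 0.16 (adjusted p = 0.04). The other 3 did not pass. At all doses 4 of the 5 were lower and 1 was higher. The list's summed level was not lower as a whole, at 400 to 560 CPM without GSK126 and 547 to 577 CPM with it. Cdkn2a and Cdkn2b, classical PRC2 targets that restrain the cell cycle, had 0 read pairs in 5 libraries and 3 and 2 pairs in the library with GSK126 and 50 ng/ml BMP2. They were not tested, and at this depth no difference was detectable.

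Of the mRNAs of PRC2 itself 1 of 13 passed (7.69%), near the 8.1% called among all tested genes. Ezh2, the gene of the targeted enzyme, stood at 43.3, 36.1 and 30.1 CPM without GSK126 and 32.6, 31 and 28.5 CPM with it. The groups overlapped, and its difference of -0.24 ± 0.09 (adjusted p = 0.16) did not pass. This mRNA does not check the treatment, since GSK126 acts on the enzyme. Suz12 at -0.12 ± 0.08 (adjusted p = 0.36), Eed at -0.19 ± 0.07 (adjusted p = 0.16) and Ezh1 at -0.20 ± 0.13 (adjusted p = 0.37) did not pass either. The member that passed was the histone chaperone gene Rbbp7, also part of other complexes, which fell by 0.43 ± 0.07 (adjusted p = 0.031). Among PRC1 genes, Phc2 rose by 0.43 ± 0.07 (adjusted p = 0.035).

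The amino acid response held more called rises than any other list examined. This programme is driven by the transcription factor ATF4 and supplies amino acids, their transporters and charged tRNAs when they run short or when protein folding is strained. Of 32 tested members 23 rose, 0 fell and 9 did not pass, with a median of 0.88 (0.78 to 0.91 with a dose left out), and in 28 every library with GSK126 lay above every library without it. The list's summed level was 2045 to 2973 CPM without GSK126 and 4013 to 4672 CPM with it, so the groups' sums did not overlap. Its median difference was 1.21, 0.80 and 0.73 by dose.

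Atf4 itself stood at 176, 232 and 268 CPM without GSK126 and 319, 377 and 389.6 CPM with it and rose by 0.70 ± 0.09 (adjusted p = 0.021). Trib3 (chromosome 2, 152337425 to 152344060), a pseudokinase gene that ATF4 induces, stood at 11.5, 28.2 and 25 CPM without GSK126 and 83.9, 125 and 148 CPM with it. The groups did not overlap, with a rise of 2.53 ± 0.15 (adjusted p = 0.0053). Trib3 also passed without the 10 ng/ml libraries (2.71, adjusted p = 0.025). Among the transporters, Slc7a11, the cystine carrier, stood at 2.32, 6.01 and 5.32 CPM without GSK126 and 16.4, 14.4 and 15.6 CPM with it and rose by 1.86 ± 0.32 (adjusted p = 0.037). Its 3 libraries with GSK126 were close to each other, while vehicle was the lowest of all. The cationic amino acid carrier gene Slc7a3 rose by 2.44. Atf3, a stress-induced transcription factor gene, stood at 3.08, 5.21 and 5.70 CPM without GSK126 and 16.6, 16.8 and 14.8 CPM with it and rose by 1.83 ± 0.22 (adjusted p = 0.018). Chac1, which encodes a glutathione-degrading enzyme, rose by 1.78 ± 0.23 (adjusted p = 0.019) and the asparagine synthetase gene Asns by 1.26 ± 0.17 (adjusted p = 0.021). Ddit4 was the 1 member lower at every dose, -0.59, and did not pass (adjusted p = 0.066).

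The promoters of Chac1, Atf3 and Slc7a11 are shown because they are members that rose and hold the core of the C/EBP-ATF response element, through which ATF4 and C/EBP factors act. Capitals mark TGATGCAA or its reverse complement TTGCATCA, in RefSeq windows of the same kind: chr2:119350992-119351291 on the plus strand for Chac1, chr1:191183284-191183583 on the minus strand for Atf3 and chr3:50443564-50443863 on the minus strand for Slc7a11.
Chac1: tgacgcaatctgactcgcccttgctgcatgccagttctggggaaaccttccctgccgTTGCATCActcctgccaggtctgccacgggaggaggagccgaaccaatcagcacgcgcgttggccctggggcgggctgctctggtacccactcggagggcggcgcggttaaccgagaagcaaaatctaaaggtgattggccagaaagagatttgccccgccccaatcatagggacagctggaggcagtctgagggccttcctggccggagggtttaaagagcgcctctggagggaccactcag
Atf3: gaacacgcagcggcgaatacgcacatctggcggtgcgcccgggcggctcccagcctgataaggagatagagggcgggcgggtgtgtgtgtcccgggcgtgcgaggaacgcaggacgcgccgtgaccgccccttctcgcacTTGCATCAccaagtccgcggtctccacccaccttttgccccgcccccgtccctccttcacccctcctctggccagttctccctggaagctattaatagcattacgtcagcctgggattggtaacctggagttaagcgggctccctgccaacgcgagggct
Slc7a11: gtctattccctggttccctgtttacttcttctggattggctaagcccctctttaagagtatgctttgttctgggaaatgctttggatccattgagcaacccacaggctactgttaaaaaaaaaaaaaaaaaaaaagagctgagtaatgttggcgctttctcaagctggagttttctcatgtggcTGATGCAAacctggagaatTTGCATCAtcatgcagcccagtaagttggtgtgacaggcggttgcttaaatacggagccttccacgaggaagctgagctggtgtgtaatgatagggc
The match is centred 189 bases before the start site in Chac1, 106 before it in Atf3, and 62 and 43 before it in Slc7a11, which holds a pair of matches. In the list, 7 of 28 promoters found held a match (25%): Atf3, Chac1, Pycr1, Slc7a11 and Vldlr, which rose, and Nupr1 and Slc1a4, which did not pass. The median log2 fold change was 1.07 over these 7 and 0.81 over the other 21. Of all windows 0.895% held it, and of the promoters found for tested genes 52 of 9386 (0.554%).

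Of 20 cytosolic aminoacyl-tRNA synthetases, which charge tRNAs, 8 rose and 0 fell, with a median of 0.44 (0.34 to 0.50 with a dose left out). Sars, the seryl-tRNA synthetase gene, stood at 118, 181 and 184 CPM without GSK126 and 247, 303 and 319 CPM with it, with no overlap, and rose by 0.87 ± 0.09 (adjusted p = 0.014). Aars rose by 0.67 ± 0.10 (adjusted p = 0.025), Gars by 0.70 ± 0.14 (adjusted p = 0.046) and Wars by 0.71 ± 0.13 (adjusted p = 0.04). Dars (0.03), Rars (-0.01) and Qars (0.05) lay near 0 and did not pass. Of 19 genes of folding in the endoplasmic reticulum, Edem1, which clears misfolded glycoproteins, rose by 0.51 ± 0.10 (adjusted p = 0.043), and 18 did not pass (list median 0.19, and 0.12 to 0.23 with a dose left out). Ribosomal protein genes of the small subunit had 0 of 31 called and a median of 0.10.

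Of 20 genes of bone matrix and mineralisation 4 rose and 0 fell, with a median of 1.30. Its median was 0.98, 0.98 and 0.29 by dose. It was 0.44 without the 0 ng/ml libraries, where 9 rose and 2 fell, 1.38 without those at 10 ng/ml and 1.85 without those at 50 ng/ml, where 4 rose. The test of BMP2 against none passed for none of these genes with edgeR; the doses 10 and 50 ng/ml were not tested against each other. Ibsp, bone sialoprotein, which nucleates mineral, stood at 225, 997 and 2239 CPM without GSK126 and 1259, 3432 and 4095 CPM with it. At each dose the library with GSK126 was higher, but the groups overlapped because the level was higher at each higher BMP2 dose on both sides. Ibsp rose by 1.71 ± 0.32 (adjusted p = 0.044), and the differences by dose were 2.48, 1.78 and 0.87. Enpp1, which makes the mineralisation inhibitor pyrophosphate, stood at 0.340, 0.706 and 0.859 CPM without GSK126 and 2.23, 8.41 and 18.1 CPM with it. All 3 libraries with GSK126 were above all 3 without, and the rise was 3.63.

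Bglap, osteocalcin, stood at 4.25, 28.4 and 174 CPM without GSK126 and 59, 210.2 and 511 CPM with it and rose by 2.73 ± 0.45 (adjusted p = 0.033), and its near-identical neighbour Bglap2 rose by 3.26 ± 0.62 (adjusted p = 0.044). Reads shared by these copies could be split by the counting, so both values are uncertain. Spp1, osteopontin, stood at 253, 338 and 619.8 CPM without GSK126 and 491, 2528 and 7572 CPM with it. Its differences were 0.96, 2.90 and 3.61 by dose, and the estimate of 2.52 ± 0.56 (adjusted p = 0.063) did not pass. The osteocyte genes Dmp1 at 0.68, 2.81 and 3.08 by dose and 2.24 ± 0.52 (adjusted p = 0.069) over the doses, and Phex, at 0.35, 3.79 and 2.41 and 2.23 ± 0.67 (adjusted p = 0.11), had the same shape, with larger differences at both BMP2 doses than without BMP2. None of these 3 passed in the fit on the 6 libraries, while all were higher at every dose. Without the 0 ng/ml libraries both Dmp1 and Phex passed, at a median of 2.99, and neither did without those at 10 or 50 ng/ml. Alpl, tissue-nonspecific alkaline phosphatase, went from 1.21, 0.02 and -0.28 across the doses, 0.31 ± 0.30 (adjusted p = 0.55), and Col1a1, the main collagen of bone, stood at 0.25 ± 0.24 (adjusted p = 0.54).

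Of 18 osteoblast transcription factors, 2 rose: Atf4, counted above, and the AP-1 gene Fosl1, by 1.06. Without GSK126 only the 50 ng/ml library of Fosl1 reached 1 CPM, so the filter needed the libraries with GSK126 and no p is given. Runx2, the master regulator of the lineage, stood at 231, 318 and 458 CPM without GSK126 and 309.7, 347 and 400.4 CPM with it. Its libraries overlapped, with differences of 0.42, 0.13 and -0.19 and an estimate of 0.12 ± 0.13 (adjusted p = 0.61). Sp7, osterix, stood at 89.5, 209 and 477 CPM without GSK126 and 214, 351 and 522 CPM with it, and its difference shrank from 1.26, 0.75 and 0.13 with dose, 0.71 ± 0.22 (adjusted p = 0.12). BMP-SMAD target genes had 0 of 16 called (median 0.28, and 0.39, 0.14 and 0.27 without the 0, 10 and 50 ng/ml libraries), and 3 rose without the 0 ng/ml libraries. Members such as Id1 (0.37) and Smad6 (0.30) did not pass.

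**Figure D3:**
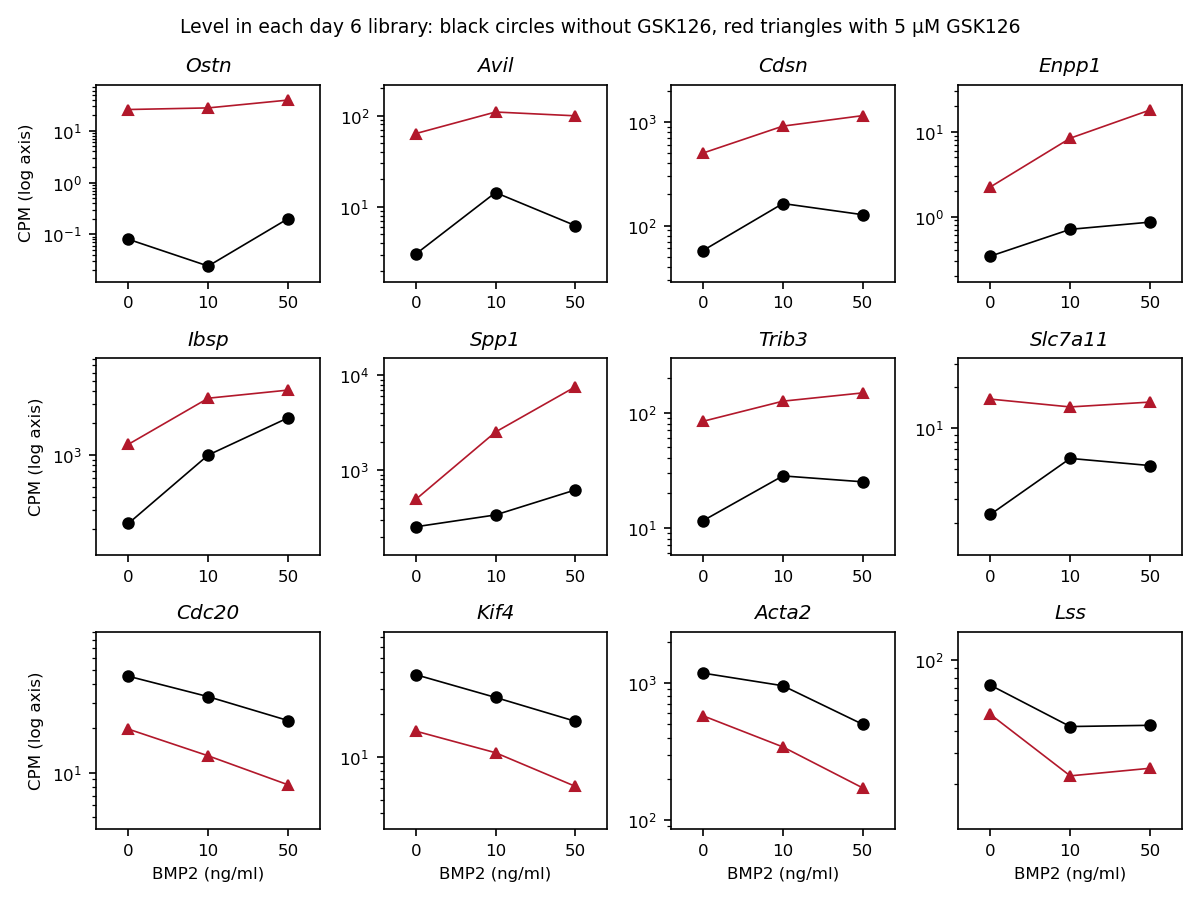
Level in CPM (log axis) of 12 genes in each day 6 library by BMP2 dose, black circles without GSK126 and red triangles with it, 1 library per point. All 3 points of 1 group lie on 1 side of all 3 of the other for Ostn, Avil, Cdsn, Enpp1, Trib3, Slc7a11, Cdc20 and Kif4, while for Ibsp, Spp1, Acta2 and Lss the groups differ at each dose and overlap across doses.

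Collagens moved in both directions. Of 31 tested, 6 rose and 4 fell, with a median of 0.35 (0.22 to 0.31 with a dose left out). Col2a1, the main collagen of cartilage, stood at 60.2, 93.1 and 345 CPM without GSK126 and 263, 581 and 1111 CPM with it and rose by 2.15 ± 0.20 (adjusted p = 0.01), with overlap because 50 ng/ml BMP2 without GSK126 exceeded GSK126 alone. Col9a1, its fibril partner, had 3, 1 and 2 read pairs without GSK126 and 212, 148 and 66 with it, so it went from near the floor to readily detected at each dose. Col22a1 rose by 2.59 ± 0.37 (adjusted p = 0.024), Col13a1 by 3.66 and Col23a1 by 2.21. On the other side Col12a1 (-0.85), Col16a1 (-0.83), Col6a1 (-0.54) and Col6a2 (-0.61) fell. The chondrocyte marker list, which includes Col2a1 and Col9a1, summed to 103 to 532 CPM without GSK126 and 419.5 to 1346 CPM with it. Those 2 of its 7 tested members passed, 5 of the 7 were higher at all 3 doses and 0 lower, and the median was 1.36; without the 50 ng/ml libraries 4 passed and it was 1.93. Col11a2 stood at 1.70 ± 0.50 (adjusted p = 0.11) and Hapln1, a link protein gene of cartilage matrix, at 1.36 ± 0.40 (adjusted p = 0.11), while the chondrocyte factor Sox9 stood at -0.32 ± 0.19 (adjusted p = 0.34). Acan, the main cartilage proteoglycan, had at most 3 pairs in each of the 6 libraries. The part of chondrocytes in the rise of these collagens was not tested. Eln, elastin, stood at 1.24, 0.487 and 0.115 CPM without GSK126 and 28, 5.47 and 0.635 CPM with it: with GSK126 the level was lower at each higher BMP2 dose, as it was without GSK126. Eln rose by 3.86. Without GSK126 only vehicle reached 1 CPM, so the filter needed the libraries with GSK126 and no p is given. Of 21 matrix proteases and inhibitors 2 rose and 1 fell, and without the 0 ng/ml libraries 7 rose and 2 fell. Timp3 and Timp1, inhibitors of matrix proteases, rose by 1.19 ± 0.12 (adjusted p = 0.012) and 0.94 ± 0.08 (adjusted p = 0.0083), while the aggrecanase gene Adamts4 fell by 0.57 ± 0.10 (adjusted p = 0.039).

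Some genes of lipid synthesis fell. Of 24 genes of cholesterol synthesis 4 fell and 0 rose, 20 were lower at all 3 doses, and the median was -0.68. The list's medians were -0.23, -0.70 and -1.04 by dose, and the count moved with the doses kept: without the 0 ng/ml libraries 18 fell and the median was -0.86, without those at 10 ng/ml it was -0.65, and without those at 50 ng/ml 3 fell and it was -0.49. Lss, lanosterol synthase, stood at 72.4, 42.2 and 42.9 CPM without GSK126 and 49.5, 22.2 and 24.5 CPM with it and fell by 0.76 ± 0.09 (adjusted p = 0.019). The groups overlapped, since the library with GSK126 alone was above the BMP2 libraries without GSK126. Nsdhl fell by 0.87 ± 0.14 (adjusted p = 0.034), Mvk, mevalonate kinase, by 0.71 ± 0.11 (adjusted p = 0.029), and the sterol carrier gene Stard4 by 0.84 ± 0.13 (adjusted p = 0.031). Of 12 genes of fatty acid synthesis 4 fell, among them the elongase Elovl6, by 0.92 ± 0.08 (adjusted p = 0.0079), and Acly, which supplies acetyl-CoA, by 0.45 ± 0.07 (adjusted p = 0.031).

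Of 17 contractile and actin genes 8 fell and 1 rose (Des), with a median of -0.56. Without the 0 ng/ml libraries 11 fell (median -0.74), without those at 10 ng/ml the median was -0.55, and without those at 50 ng/ml 4 fell (median -0.34). Acta2, smooth muscle actin, stood at 1184, 957 and 500.0 CPM without GSK126 and 577, 342 and 171 CPM with it. The level was lower with GSK126 at each dose and lower at each higher dose on both sides, and the fall with GSK126 was 1.36 ± 0.13 (adjusted p = 0.011). Lmod1, which nucleates actin filaments in smooth muscle, had nearly equal differences at each dose (-1.05, -1.22 and -1.21) and fell by 1.16 ± 0.08 (adjusted p = 0.0053). Actg2 fell by 0.95 ± 0.14 (adjusted p = 0.026), Myl9 by 0.76 ± 0.12 (adjusted p = 0.032) and Srf, the factor that drives such genes, by 0.52 ± 0.07 (adjusted p = 0.021). The 6 smooth muscle markers, of which Myocd lay at the floor, summed to 609 to 1343 CPM without GSK126 and 230 to 686 CPM with it, and the 3 tested all fell. Whether contractile cells were fewer was not tested.

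Of 28 WNT ligands and receptors 3 rose and 1 fell, against 8.1% of all tested genes called; without the 0 ng/ml libraries 7 rose and 4 fell. The ligand gene Wnt5a (3.58, 4.19 and 7.38 CPM without GSK126 and 7.76, 13.1 and 14.5 CPM with it, without overlap) rose by 1.24 ± 0.16 (adjusted p = 0.019). The receptor gene Fzd5 rose by 0.99 ± 0.14 (adjusted p = 0.024), while Ror1, a co-receptor for Wnt5a, fell by 1.05 ± 0.16 (adjusted p = 0.028). Lgr6, a receptor for R-spondins, was the third that rose, by 3.88. Without GSK126 only its 50 ng/ml library reached 1 CPM, so the filter needed the libraries with GSK126 and no p is given. Lgr6 stood at 0.0400, 0.0973 and 1.83 CPM without GSK126 and 0.124, 2.27 and 27.3 CPM with it, and its vehicle library held 2 read pairs, so the difference rests on the BMP2 doses. On day 1 the 6 libraries had from 2226 (vehicle) to 8549 (both agents, 50 ng/ml BMP2) read pairs of Lgr6, far above most of these values. Of 7 secreted WNT inhibitors tested 1 rose and 1 fell: Frzb rose by 3.88 and Sfrp2 fell by 0.53 ± 0.09 (adjusted p = 0.037). In the IGF axis 3 of 11 rose and 1 fell (2 and 0 without the 50 ng/ml libraries), and of 8 imprinted growth regulators 3 rose and 1 fell. The imprinted ligand gene Igf2 (4.25, 2.04 and 1.40 CPM without GSK126 and 13.2, 4.95 and 4.23 CPM with it) rose by 1.50 ± 0.14 (adjusted p = 0.0098), its clearance receptor Igf2r by 0.48 ± 0.08 (adjusted p = 0.038) and Igfbp6 by 1.12 ± 0.19 (adjusted p = 0.036), and the protease gene Pappa2 fell by 0.52 ± 0.09 (adjusted p = 0.034). H19, the imprinted neighbour of Igf2, rose by 1.96 ± 0.28 (adjusted p = 0.024), and the imprinted gene Mest fell by 1.14 ± 0.11 (adjusted p = 0.01).

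Of 24 ion channel genes 6 rose and 1 fell. Kcnt2, a sodium-activated potassium channel gene, stood at 16, 15.3 and 16.1 CPM without GSK126 and 31.8, 32.7 and 35.9 CPM with it. The 2 groups were each tight and lay apart, and Kcnt2 rose by 1.08 ± 0.07 (adjusted p = 0.0053). The sodium channel gene Scn1a rose by 2.07, and the T-type calcium channel gene Cacna1g fell by 1.04 ± 0.17 (adjusted p = 0.032). Of 29 lysosome and autophagy genes 4 rose and 0 fell (median 0.24, and 0.19 to 0.30 with a dose left out). Without the 0 ng/ml libraries 10 rose and 1 fell, and without those at 50 ng/ml 0 passed, as without those at 10 ng/ml. The 4 were Ctsa by 0.69 ± 0.11 (adjusted p = 0.032), Ctsl by 0.66 ± 0.12 (adjusted p = 0.043), Ctsk by 0.45 ± 0.08 (adjusted p = 0.043) and the autophagy receptor Sqstm1 by 0.52 ± 0.10 (adjusted p = 0.045). Prostaglandin and cytokine genes rose in 3 of 12, with the inducible cyclooxygenase Ptgs2 at 0.83 ± 0.12 (adjusted p = 0.025), Ptgis at 0.73 ± 0.14 (adjusted p = 0.046) and the cytokine Lif at 0.58 ± 0.11 (adjusted p = 0.043). Antigen presentation genes moved in both directions: of 11 tested 3 rose and 1 fell, with a median of -0.19. At all 3 doses 4 were higher and 5 lower. The class I antigen genes H2-K1 and H2-D1 rose by 1.11 ± 0.09 (adjusted p = 0.0073) and 0.79 ± 0.11 (adjusted p = 0.023). Tapbp, which loads peptides onto their products, fell by 0.63 ± 0.10 (adjusted p = 0.029). H2-K1 and H2-D1 are members of a family of near copies, so their counts are uncertain. Of 15 interferon-stimulated genes 2 fell, Stat2 (-0.49) and Ddx58 (-0.62), and of 19 p53 targets 0 passed.

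Lineage transcription factors, many of which PRC2 represses in other cells, are read beside the 4.01% of all tested genes that rose. Of 13 tested Hox genes 1 rose and 0 fell, of 36 other homeobox and paired-box genes 2 rose and 5 fell, of 24 SOX, FOX, GATA and T-box genes 2 rose and 1 fell, and of 13 basic helix-loop-helix genes 0 passed. The lists held 39 Hox genes, 70 SOX, FOX, GATA and T-box genes and 46 basic helix-loop-helix genes, so most members did not reach 1 CPM in 2 libraries and were not tested. Hoxb13 had 1, 2 and 0 read pairs without GSK126 and 69, 60 and 34 with it, and it was the Hox gene that passed. Emx2 rose by 0.70 ± 0.14 (adjusted p = 0.045), Gbx1 by 1.04 ± 0.18 (adjusted p = 0.038), Tbx2 by 1.14 ± 0.20 (adjusted p = 0.038) and Foxo1 by 0.69 ± 0.08 (adjusted p = 0.015). Lhx6 (-0.95) and Tbx3 (-0.87) fell.

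Genes that went from near silence to clear detection were counted directly on read pairs, with no test. Of 8368 genes in the table with at most 3 pairs in each library without GSK126, 12 had at least 20 pairs in each library with it. The reverse, at least 20 pairs in each library without GSK126 and at most 3 in each with it, was found for 0 of 11785 genes. Cyfip2, a regulator of actin assembly, had 0, 1 and 1 read pairs without GSK126 and 30, 104 and 172 with it. Asb4 had 2, 1 and 0 read pairs without GSK126 and 58, 40 and 23 with it, Prokr1, a prokineticin receptor gene, 1, 0 and 0 read pairs without GSK126 and 45, 23 and 24 with it, and the endocytic receptor gene Lrp2 3, 3 and 2 read pairs without GSK126 and 23, 20 and 23 with it. The levels with GSK126 stayed low, and 8 of the 12 did not pass the filter on level and were not tested. Most silent genes did not reach this level: 7668 genes had at most 3 pairs in all 6 libraries.

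Ostn (chromosome 16, 27307641 to 27351209 in mm10) encodes osteocrin, a secreted peptide that binds the natriuretic peptide clearance receptor. It had 4, 1 and 7 read pairs without GSK126 and 1246, 1498 and 1791 with it. That is 0.0801, 0.0243 and 0.200 CPM without GSK126 and 25.8, 27.7 and 39.2 CPM with it, with every library with GSK126 far above the rest. No fold or p is given, as the 3 libraries without GSK126 lay near the floor and the filter let it in through the others. On day 1 it had 0 read pairs in all 6 libraries. Npr3, the gene of the clearance receptor, stood at 19.9, 11.3 and 7.24 CPM without GSK126 and 11.2, 7.08 and 4.53 CPM with it and fell by 0.73 ± 0.09 (adjusted p = 0.018).

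The other largest rises, among genes whose mean reached 5 CPM, belong to varied functions. Avil, an actin-severing protein gene, stood at 3.04, 14.4 and 6.24 CPM without GSK126 and 63.4, 109 and 99.3 CPM with it, with no overlap, and rose by 3.75 ± 0.31 (adjusted p = 0.0081). Cdsn, corneodesmosin, an adhesion protein of the epidermis, stood at 57.4, 163 and 127 CPM without GSK126 and 503, 916 and 1158 CPM with it. It was by level the most abundant of these genes, with all 3 libraries with GSK126 above the rest, and it rose by 2.94 ± 0.17 (adjusted p = 0.0053). The epithelial marker list that holds Cdsn summed to 103 to 182 CPM without GSK126 and 531 to 1180 CPM with it. With GSK126 most of that sum was Cdsn itself. Cdsn was the 1 of its 5 tested members that passed, the list's median was 0.19, and 7 of its 13 members, such as Krt8 and Epcam, lay at the floor. Cd200, an immunoglobulin-family surface protein gene, rose by 3.65 ± 0.42 (adjusted p = 0.015). The calcium pump gene Atp2a3 rose by 2.99 ± 0.37 (adjusted p = 0.018) and Gpnmb, a transmembrane glycoprotein gene, by 2.81 ± 0.10 (adjusted p = 0.0053). Rragd, a GTPase gene that reports amino acids to mTORC1, rose by 2.71 ± 0.28 (adjusted p = 0.013). Cd300lb (3.17) and Sspo (2.73) rose as well, as did Tmem56, which stood at 1.14, 1.29 and 3.95 CPM without GSK126 and 15.9, 12.3 and 16.2 CPM with it. Vwf, an endothelial marker, rose by 1.76 ± 0.12 (adjusted p = 0.006) from 0.741, 2.17 and 3.98 CPM without GSK126 and 2.32, 7.76 and 13.7 CPM with it, and 5 of the 7 endothelial markers lay at the floor, Cdh5 at 0 pairs throughout. The part of other cell types in these rises was not tested.

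The largest falls were smaller. Fam131b stood at 15.8, 13.1 and 9.13 CPM without GSK126 and 4.16, 2.29 and 2.41 CPM with it, with no overlap, and fell by 2.12 ± 0.16 (adjusted p = 0.0069). The interferon-inducible gene Ifi27l2a fell by 2.05 ± 0.23 (adjusted p = 0.015), the cadherin gene Cdh26 by 1.99 ± 0.27 (adjusted p = 0.021) and Cdc42ep2, an effector of the GTPase Cdc42, by 1.67 ± 0.15 (adjusted p = 0.0098). Figf, which encodes the growth factor VEGF-D, fell by 1.50 ± 0.22 (adjusted p = 0.026), Sdpr, a caveolar protein gene, by 1.44 ± 0.17 (adjusted p = 0.018) and the glutathione transferase gene Gstt1 by 1.42 ± 0.21 (adjusted p = 0.025). Ptn, pleiotrophin, a growth factor of developing bone and nerve, stood at 447, 278 and 78.4 CPM without GSK126 and 253, 81.9 and 28 CPM with it. It fell by 1.36 ± 0.19 (adjusted p = 0.024), and the groups overlapped because the level was also lower at each higher BMP2 dose.

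Among tested genes, those at 1 to 10 CPM on day 1 held more rises than falls. In the day 1 libraries without GSK126, which this contrast does not use, 2379 tested genes had a mean of 1 to 10 CPM, and 122 of them rose on day 6 (5.13%) against 40 that fell (1.68%). Among 6940 genes at 10 to 100 CPM 198 rose (2.85%) and 313 fell (4.51%), and among 1940 genes above 100 CPM 57 rose (2.94%) and 122 fell (6.29%). In every bin genes entered through their level on day 6. A gene under 1 CPM on day 6 in 1 group was thus tested only through the other group, also at 1 to 10 CPM on day 1. The shares are therefore a description only, and none is given for genes under 1 CPM on day 1.

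The test favours genes with like differences at the 3 doses, so medians over called genes are a description only. The 473 higher genes had median differences of 0.85, 0.85 and 0.78, and the 483 lower genes -0.77, -0.78 and -0.65. As a description across the 11804 genes, which are not independent, and between single pairs of libraries, the differences at 0 and 10 ng/ml had a correlation of 0.69, those at 10 and 50 ng/ml 0.70 and those at 0 and 50 ng/ml 0.40. A direct test of whether the difference with BMP2 departs from that without it passed for 1 gene with edgeR, Slc16a4, a monocarboxylate transporter family gene, with 1205 genes at an unadjusted p under 0.05 and 1 residual degree of freedom. Slc16a4 stood at 3.26, 35.7 and 12.2 CPM without GSK126 and 16.2, 11.8 and 3.96 CPM with it, higher with GSK126 without BMP2 and lower with it at both doses. The count was 185 with DESeq2 and 550 with scaling by library size alone.

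Differences with GSK126 were larger on day 6 than on day 1. The SD of log2 fold changes over tested genes was 0.483 on day 6 and 0.134 on day 1, where the same fit on the 6 day 1 libraries called 2030 of 11578 genes (17.5%, 1108 higher and 922 lower) with only 1 in each direction at least 2-fold. With library size scaling alone that day 1 split was 1990 higher and 304 lower. Of the 473 genes higher on day 6, 384 were tested on day 1: 88 were called higher and 13 lower, with a median of 0.07. Of the 483 lower genes, 476 were tested on day 1: 55 were called higher and 60 lower, with a median of -0.01. Tested directly over all 12 libraries, the effect differed between the days for 1261 of 12056 genes (10.5%), more positive on day 6 for 475 and more negative for 786.

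By list, the mitosis genes had a day 1 median of -0.03, with 3 called higher and 9 lower, and 49 of 52 differed between the days, all more negative on day 6. The amino acid response had a day 1 median of 0.00, with 4 higher and 1 lower, and 25 of 32 were more positive on day 6 and 1 more negative. Cholesterol synthesis genes were on opposite sides: 22 of 24 were called higher on day 1, at a median of only 0.15, and 13 of 24 were more negative on day 6. In the bone matrix list 7 of 15 were called higher on day 1 and 1 lower, and 1 of 20 differed between the days.

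**Figure D4:**
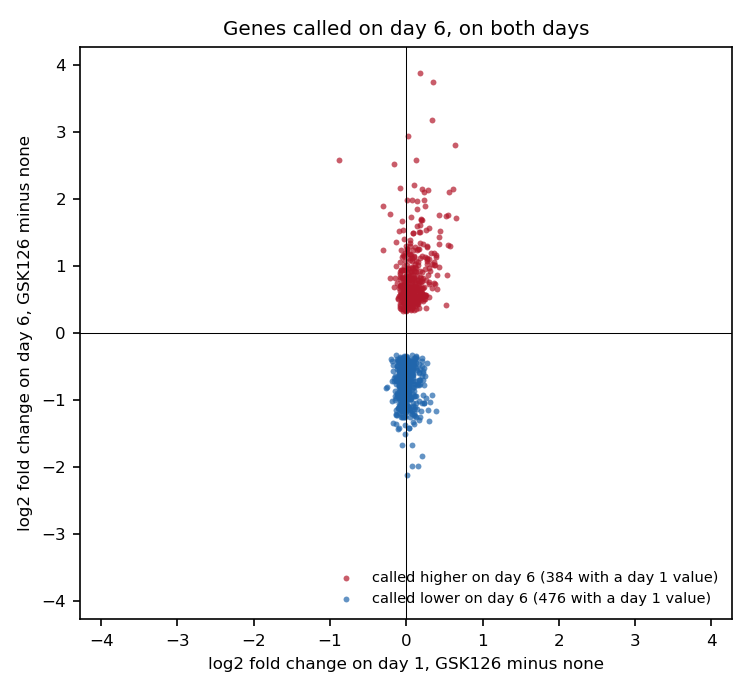
Log2 fold change for GSK126 on day 1 against that on day 6 for genes called on day 6, red for higher (384 with a day 1 value) and blue for lower (476), on equal axes. Points spread along the day 6 axis and stay close to 0 on day 1, with medians of 0.07 and -0.01.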

How the data were processed

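Total RNA from cells (TRIzol and column extraction) was made into libraries with an Illumina mRNA kit, per the labels' protocols. The authors deposited 1 table of raw counts per gene with RPKM values (counts scaled for gene length and depth) and the gene models' coding length for 23358 rows. Per the submitters' processing notes the tools were bcl2fastq, TopHat2 2.0.6 and HTSeq on mm10. Strand and counting settings do not appear in the labels, so reads of overlapping and antisense genes cannot be told apart. All 195176 deposited counts above 0 were even, so a read pair is taken here as 2 counts. The deposited RPKM values and coding lengths entered no test. The 69 rows whose symbol occurs more than once were treated as separate features.

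Counts of the 6 day 6 libraries were filtered at 1 CPM in 2 libraries, scaled by TMM and tested with edgeR 4.0.16 in R 4.3.3 (quasi-likelihood, BMP2 dose as a factor plus GSK126, 2 residual degrees of freedom, Benjamini-Hochberg adjustment at 0.05). The block pairs libraries by the dose in the labels. The same fit was made on day 1, with an interaction with day over 12 libraries and an interaction with BMP2 on day 6. Differences per dose are log2 CPM with a prior count of 2. The scripts were checked on simulated counts. DESeq2 1.42.0, limma-voom 3.58.1, other scalings, filters and fits, and each dose left out were alternatives.

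Named genes were, first, the 15 largest rises and 15 largest falls of called genes that averaged 5 CPM or more, had 1 direction at all doses and a symbol that is unshared and not a clone or Gm, Rik or accession name. Up to 4 called members of each list followed, then 12 genes with at most 3 pairs in each library without GSK126 and at least 20 in each with it, and a panel of Polycomb and bone genes. Others were named after their values were seen: genes called without 10 ng/ml, list members beside a count and Slc16a4. Single values of a few genes that meet the rule are not reported here. The members and lists were chosen with earlier results of these data known. Promoter windows are RefSeq's, in GRCm38.p6. They matched 9386 of 11799 tested names (79.5%), 84.6% of the mitosis list and 87.5% of the amino acid list, and motif matches of lists under 80% are not reported.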

Additional observations from a re-analysis of the deposited data

Results flagged for a closer look

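The effect of GSK126 differed between day 6 and day 1 for 1261 genes by the test of the difference over 12 libraries. Some named genes were called in opposite directions on the days and also differed. Of those given here, 3 were lower on day 1 and higher on day 6: Col22a1 (difference 3.47 on the log2 scale), Ptgs2 (1.03) and Hmox1 (0.92). The others were higher on day 1 and lower on day 6. They include genes of sterol and fatty acid synthesis, Mvk (-0.92), Lss (-0.92), Nsdhl (-0.97), Stard4 (-0.91), Acss2 (-1.02), Elovl6 (-1.15), Acly (-0.55) and Fads2 (-0.72). The remaining differences were Sfrp2 (-0.77), Tapbp (-0.72), Cdkn2d (-0.87), Cacna1g (-1.28), Mest (-1.28), Cdc20 (-1.41) and Ptn (-1.47). Their day 1 values were small, at most 0.24 in size except Col22a1 at -0.89.

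With BMP2 against without it, the effect of GSK126 on day 6 differed for 1 gene, Slc16a4, with an interaction of -3.92 (log2; edgeR's quasi-likelihood test, adjusted p = 0.02). It was the vehicle library that was lowest without GSK126, with 163 read pairs.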

How the results depend on the processing

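The count of 956 genes was 2010 with DESeq2's Wald test, 3415 in the fit over all 12 libraries, 2 with no replicate block (no dose term; Kcnt2 and Ostn) and between 9 and 1344 with a dose left out, the lowest without 10 ng/ml. It stayed within 1.5 times under the other 7 alternatives that keep all 6 libraries (800 to 1074); with library sizes unadjusted it was 809, with 476 genes higher and 333 lower, with the median gene at 0.04. On day 1 the 2030 genes were 1210 with DESeq2. The interaction with BMP2 gave 185 genes with DESeq2 and 550 with library size scaling, which moved its median gene by 0.12. Alpl, Runx2 and Jarid2, not called, changed sign without the 0 ng/ml libraries. With a dose left out they ranged from -0.13 to 0.61, from -0.033 to 0.27 and from -0.085 to 0.35. The cause of these shifts was not tested. With 1 library per condition, dose stands in for replication, and genes below 1 CPM in 5 or more libraries were not tested.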
